A study of Mus musculus with 17 samples.

Results

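The MHC class I antigen presentation pathway was described here by 10 genes, namely H2-K1, H2-D1, B2m, Tap1, Tap2, Tapbp, Nlrc5, Psmb8, Psmb9 and Psmb10. They were chosen by gene symbol from a raw count table of 35321 genes, and all 10 passed the filter on low counts, as did 14920 genes in all. The libraries were made from polyadenylated RNA of hematopoietic stem and progenitor cells (HSPC), isolated from bone marrow of wild-type C57BL/6J mice by flow sorting. The mice were injected intraperitoneally with phosphate-buffered saline (PBS), with LPS (lipopolysaccharide, a ligand of TLR4 from the outer membrane of Gram-negative bacteria), or with LPS together with anti-IL-10R, a blocking antibody to the receptor of interleukin-10. Marrow was taken 24 or 72 h after LPS, which gave 5 groups: PBS (5 libraries, labelled day 0), LPS 24 h (3), LPS with anti-IL-10R 24 h (3), LPS 72 h (3) and LPS with anti-IL-10R 72 h (3). No group received the antibody without LPS, and no age or sex of the mice was given. Nothing says whether a library came from 1 mouse or from pooled mice, so the p-values measure the spread between these libraries, which may be in part technical.

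MHC class I molecules show peptides from inside the cell to CD8 T cells. The proteasome cuts proteins into peptides, the TAP transporter carries these into the endoplasmic reticulum, and tapasin holds an empty class I molecule beside TAP until it has bound a peptide. Interferons and inflammatory cytokines raise this pathway in most cells, in part by replacing the 3 catalytic subunits of the standard proteasome with the inducible subunits of the immunoproteasome, and in part through NLRC5, which acts on class I promoters together with factors bound there.

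Of the 10 genes, 7 lie on mouse chromosome 17 in RefSeq's annotation of GRCm38.p6. Of these, Psmb9 (34182030 to 34187330, minus strand), Tap1 (34187556 to 34197225), Psmb8 (34198195 to 34201454) and Tap2 (34204479 to 34216321, the last 3 on the plus strand) lie next to each other in this order. Tapbp (33919478 to 33929290, plus strand), H2-K1 (33996012 to 34000619, minus strand) and H2-D1 (35263094 to 35267497, plus strand) are on the same chromosome. B2m is on chromosome 2 (122147687 to 122153082, plus strand), and Nlrc5 (94434335 to 94527272, plus strand) and Psmb10 (105935728 to 105938392, minus strand) are on chromosome 8.

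Short promoter stretches are printed because the genes of the class I chains share letters there. RefSeq promoter windows of GRCm38.p6 were found for 8 of the 10 genes (all but Tap2 and Nlrc5), and up to 250 bases before the start of 1 transcript per gene were searched on both strands (225 bases between the starts of Psmb9 and Tap1). For H2-K1 this start is base 34000347, inside the gene span given above, so its stretches lie within that span. The H2-D1, Psmb8 and Tap1 to Psmb9 stretches overlap untranslated regions of other GENCODE transcripts (of H2-D1, Psmb8 and Psmb9). Both classical heavy chain genes and B2m matched the kappaB consensus close to a match to AANNGAAA, the core of an interferon regulatory factor site. In the heavy chain genes, overlapping kappaB matches on both strands form 1 run, followed after 10 bases by AANNGAAA on the other strand. In B2m the order is reversed, with 3 bases between. The matches are in capitals, 5′ to 3′ on the gene's strand.
H2-K1 (chr17:34000430-34000458, minus strand): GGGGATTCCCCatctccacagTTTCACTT
H2-D1 (chr17:35262923-35262951, plus strand): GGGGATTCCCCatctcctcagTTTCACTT
B2m (chr2:122147545-122147574, plus strand): catgaAACTGAAAatgGGAAAGTCCCtttg
The kappaB consensus was found in 7.01% of 27025 promoter windows and in 3 of the 8 genes, and AANNGAAA in 21.6% and in the same 3. The H2-K1 and H2-D1 windows were identical at 161 of 177 aligned positions (91.0%).

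The heavy chain genes and B2m also held TGACG followed after exactly 20 bases by ATTGG, which is CCAAT read on the other strand. TGACG is part of the cyclic AMP response element and CCAAT is the site of NF-Y. These letters are shown because NLRC5 acts at class I promoters with factors of this kind.
H2-K1 (chr17:34000359-34000388, minus strand): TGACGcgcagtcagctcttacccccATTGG
H2-D1 (chr17:35262993-35263022, plus strand): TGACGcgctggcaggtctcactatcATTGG
B2m (chr2:122147609-122147638, plus strand): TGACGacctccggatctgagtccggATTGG
This pair at this spacing was found in 25 of the 27025 windows (0.0925%), and 3 of the 25 belong to the genes described here. The spacing searched was the one seen in these 3 genes, so their matches were given in advance and the share is a description only. The H2-K1 and H2-D1 windows, 91.0% identical where aligned, are not separate cases. Alone, TGACG was found in 17.9% of windows and in 5 of the 8 genes, and CCAAT in 34.5% of windows and in 6 of the 8. Tap1 and Psmb9 share the bases between their starts, so 1 match of each motif there counts for both genes.

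The stretch between the Psmb9 and Tap1 starts held TGACG on the strand of Tap1, and Psmb8 held TTCNNNGAA, the letters of a STAT site.
Tap1 and Psmb9 (chr17:34187458-34187487, plus strand): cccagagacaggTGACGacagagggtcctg
Psmb8 (chr17:34198088-34198117, plus strand): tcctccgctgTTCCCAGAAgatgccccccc
TTCNNNGAA was found in 7.18% of windows. The Psmb10 window held none of the 5 motifs and the Tapbp window held CCAAT only. A match is a run of letters and was not tested for binding.

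Library totals were 10516722 to 16006001 counts. Levels are given as CPM, a gene's count relative to the library's total, with each total scaled by the trimmed mean of M values (TMM), a factor per library that corrects for composition. The factor was lowest in LPS 24 h library 1 (0.799), against 0.98 and 0.993 in the other LPS 24 h libraries. All 14 HSPC markers had counts in every library, Kit, Cd34 and Flt3 among them. Their summed level was 1910 to 2780 CPM with PBS, 1282 to 1446 at LPS 24 h, 1388 to 1734 at LPS with anti-IL-10R 24 h, 1932 to 2587 at LPS 72 h and 1347 to 2043 at LPS with anti-IL-10R 72 h. Of the lists for other cell types, the 14 macrophage markers summed to 470 to 3431 CPM with PBS. At 24 h they summed to 156 to 185 CPM without and 195 to 296 CPM with the antibody. At 72 h these sums were 286 to 458 and 193 to 548 CPM. The 10 B cell markers summed to 137 to 189 CPM with PBS and 43.8 to 81.4 at LPS 24 h. The 10 dendritic cell markers summed to 664 to 1013 and 352 to 517. Flt3 is on this list and on the HSPC list, with a median of 433 CPM with PBS and 70.1 CPM at LPS 24 h. The lower dendritic cell sum thus includes the lower level of an HSPC marker. The 11 erythroid markers summed to 206 to 387 CPM with PBS, 329 to 752 at LPS 24 h and 5.85 to 107 at LPS 72 h, and the 11 neutrophil markers to 2356 to 13901, 7938 to 15914 and 5936 to 12109. The part of these marker levels in the results was not tested, and in bulk RNA fewer cells of a type and less RNA per cell cannot be told apart.

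At 24 h after LPS, 2 of the 10 genes rose against PBS, both of them immunoproteasome subunits, Psmb8 (1.54-fold) and Psmb10 (2.02-fold). Both also rose when anti-IL-10R was given with LPS (1.43-fold and 2.11-fold). The heavy chains, beta-2-microglobulin, transporter, tapasin, Psmb9 and Nlrc5 did not pass the test in either group. Calls are at an adjusted p below 0.05 in edgeR's quasi-likelihood test, with Benjamini-Hochberg adjustment over 14920 genes. Of all genes tested, 37.6% were called at LPS 24 h (19.1% higher) and 24.2% with the antibody (11.7% higher), so 2 of 10 is close to the share of all genes that rose.

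Psmb8 encodes beta5i, the inducible subunit with chymotrypsin-like activity. With PBS it was at 354, 309, 241, 339 and 284 CPM. At LPS 24 h it was at 611, 397 and 399 CPM, and with the antibody at 485, 444 and 380 CPM. Every 24 h library was above every PBS library, as was the case, in this direction, for 20.6% of all genes at LPS 24 h and 14.2% with the antibody. The log2 change was 0.62 (SE 0.17, edgeR adjusted p = 0.0110) after LPS and 0.51 (SE 0.17, edgeR adjusted p = 0.0405) after LPS with anti-IL-10R. Library 1 carried the first call: without LPS 24 h library 1, which also had the low scaling factor, the log2 change was 0.37 (edgeR adjusted p = 0.120). With the antibody, the call was lost without any 1 of PBS libraries 2, 3 and 5 or antibody libraries 1 and 2 (edgeR adjusted p from 0.0692 to 0.127).

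Psmb10 encodes beta2i, the inducible subunit with trypsin-like activity. It was at 141, 124, 94.4, 125 and 98.0 CPM with PBS. It was at 329, 171 and 208 CPM at LPS 24 h, and at 352, 232 and 153 CPM with the antibody, again with no overlap with PBS. The log2 change was 1.02 (SE 0.31, edgeR adjusted p = 0.0172) after LPS and 1.08 (SE 0.31, edgeR adjusted p = 0.0220) with the antibody. Without LPS 24 h library 1 it was 0.69 (edgeR adjusted p = 0.151). Without antibody library 1 it was 0.73 (edgeR adjusted p = 0.119), and without antibody library 2 it was 1.12 (edgeR adjusted p = 0.0650).

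Psmb9 encodes beta1i, the third inducible subunit. It was at 115 to 160 CPM with PBS, 142 to 213 at LPS 24 h and 146 to 230 with the antibody, so the groups overlapped, and the log2 change of 0.24 (SE 0.19) at LPS 24 h had an edgeR adjusted p of 0.334.

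**Figure D1:**
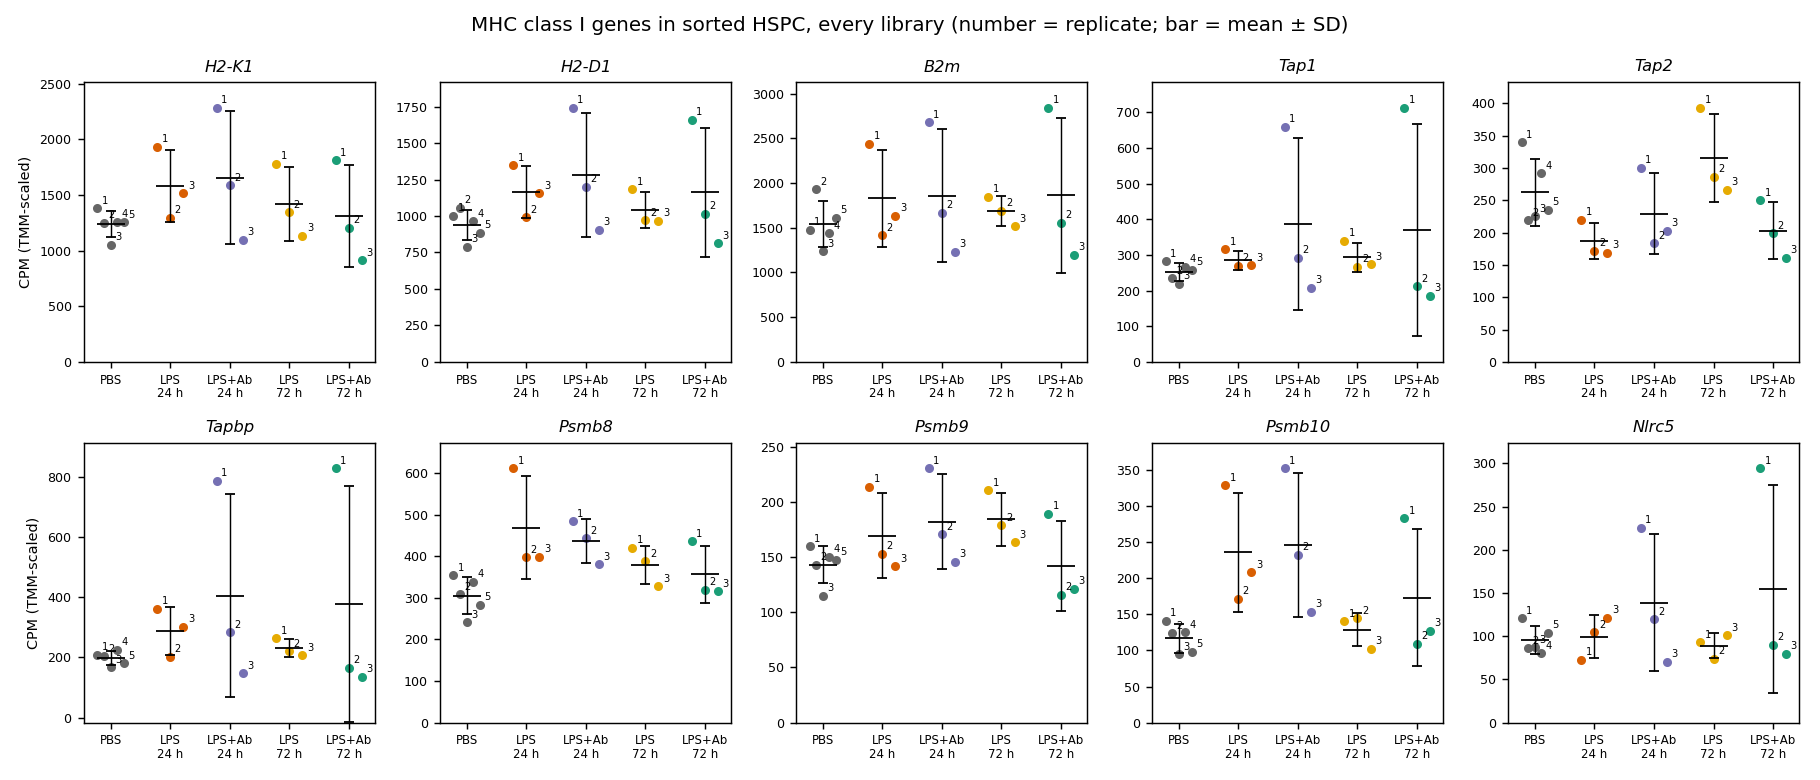
Level of each of the 10 genes in every library, in TMM-scaled CPM, by group (LPS+Ab is LPS with anti-IL-10R); points are libraries labelled with their replicate number, bars are the mean ± SD (n = 5 for PBS and 3 for the others). All 24 h points of Psmb8 and Psmb10 lie above PBS, and the antibody libraries numbered 1 stand far above the rest for Tap1, Tapbp and Nlrc5.

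The standard catalytic subunits rose at the same time. Psmb5, Psmb6 and Psmb7, which encode the subunits that Psmb8, Psmb9 and Psmb10 respectively replace, had log2 changes of 1.11, 0.88 and 1.02 at LPS 24 h (edgeR adjusted p = 0.00161, 0.00420 and 0.000925), and all 3 were called. Without LPS 24 h library 1 their changes were 0.68, 0.49 and 0.66 (edgeR adjusted p = 0.0149, 0.0483 and 0.00633). The other 11 subunits of the 20S core were all called higher at LPS 24 h, where 19.1% of all genes were. Their median log2 change was 0.87, against -0.03 over all genes. With the antibody 10 of the 11 were called higher, where 11.7% of all genes were. Psmb3 was among the most changed, at 340, 203.5 and 208 CPM at LPS 24 h against 86.0 to 138 with PBS. The 2 immunoproteasome genes thus rose together with genes of the 20S core, and the inducible and standard subunits were compared in a way that no scaling of libraries affects.

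The ratio of Psmb8 to Psmb5 counts was 2.61, 3.28, 2.68, 2.78 and 3.12 with PBS. At LPS 24 h it was 1.77, 2.35 and 2.27, below every PBS library. The mean was 2.89 ± 0.29 (SD, n = 5) with PBS and 2.13 ± 0.32 (SD, n = 3) at LPS 24 h, a difference of -0.45 on the log2 scale. The ratio of Psmb9 to Psmb6 showed the same order, at 0.963, 1.03, 0.960, 0.955 and 1.26 with PBS. It was 0.570, 0.783 and 0.706 at LPS 24 h, a difference of -0.59. Psmb10 and its partner Psmb7 kept a similar ratio, 0.962 ± 0.062 (SD, n = 5) with PBS and 0.974 ± 0.140 (SD, n = 3) at LPS 24 h, with overlapping libraries.

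The ratios were added after the values were seen. The 2 lower ratios each had an exact two-sided permutation p of 0.0357, the smallest that 5 against 3 libraries allow, and an adjusted p of 0.429 over the 24 ratio comparisons made. At LPS 72 h the Psmb8 to Psmb5 ratio was 3.43, 2.84 and 3.72 and the Psmb9 to Psmb6 ratio 1.20, 0.962 and 1.37. Both sets lay above all 3 LPS 24 h libraries (exact permutation p = 0.1, the smallest that 3 against 3 libraries allow).
With the antibody at 24 h the libraries disagreed: library 1 had Psmb8 to Psmb5 at 2.92 and Psmb10 to Psmb7 at 1.95, and library 3 had 2.08 and 0.733.

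**Figure D2:**
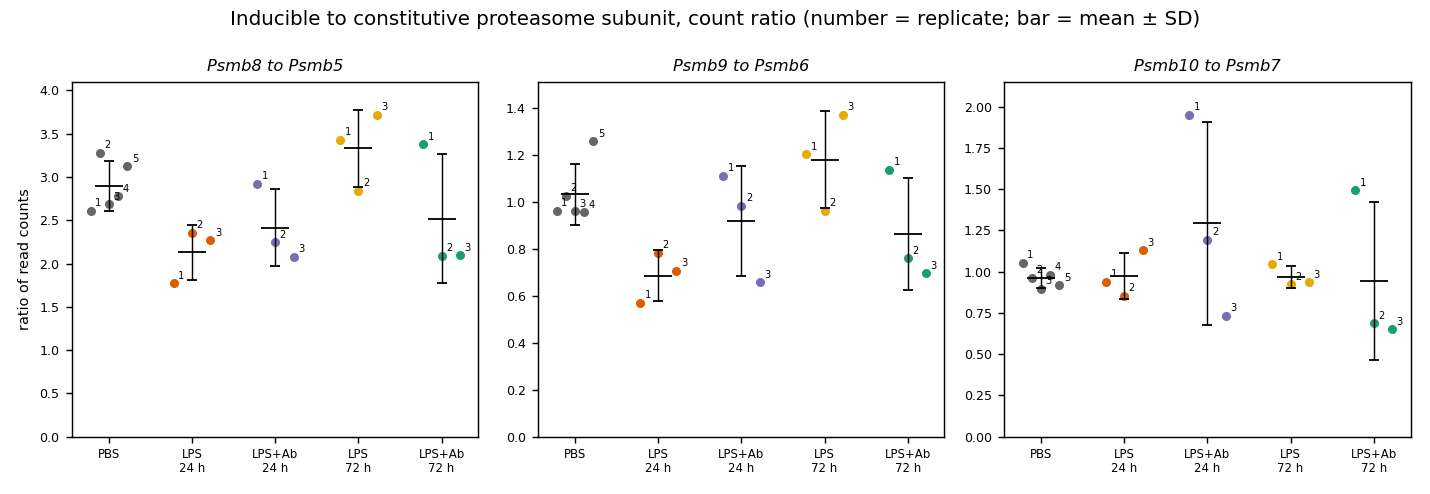
Ratio of read counts of each inducible proteasome subunit to the standard subunit it replaces, in every library (vertical axis starts at 0; numbers are replicate numbers, bars are the mean ± SD). At LPS 24 h the Psmb8 to Psmb5 and Psmb9 to Psmb6 ratios lie below all PBS libraries, while Psmb10 to Psmb7 overlaps with them.

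Of 10 genes for proteasome activators and assembly factors, 7 rose at LPS 24 h and none fell, where 19.1% of all genes rose. Psme2, a subunit of the interferon-inducible PA28 activator, rose by 0.96 (SE 0.24, edgeR adjusted p = 0.00713) at LPS 24 h, from 112 to 152 CPM with PBS to 392, 191 and 215.5 CPM. Without LPS 24 h library 1 its change was 0.56 (edgeR adjusted p = 0.0985). Its partner Psme1 had a log2 change of 0.58 and was not called (edgeR adjusted p = 0.129). Psmg1, which chaperones proteasome assembly, rose by 1.26 (edgeR adjusted p = 0.000774). Of 14 genes for peptide loading and trimming other than those described here, 8 rose at LPS 24 h and none fell, beside the same 19.1%. The largest rises were of the peptidase Thop1 (log2 change 1.30, edgeR adjusted p = 0.000750) and the chaperone Hspa5 (1.25, edgeR adjusted p = 0.00249).

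None of the cell surface chains was called at 24 h. H2-K1 and H2-D1 encode the classical class I heavy chains of this strain, and B2m their shared light chain. H2-K1 was at 1052 to 1378 CPM with PBS, at 1933, 1296 and 1513 CPM at LPS 24 h, and at 2283, 1586 and 1097 CPM with the antibody. H2-D1 was at 789.7 to 1057 CPM with PBS, at 1349, 992 and 1156 CPM at LPS 24 h, and at 1742, 1200 and 907 CPM with the antibody. B2m was at 1235 to 1928 CPM with PBS, at 2439, 1416 and 1632 CPM at LPS 24 h, and at 2682, 1669 and 1229 CPM with the antibody. In each of these 3 genes library 1 was highest at 24 h, with and without the antibody, and the groups overlapped with PBS. Their log2 changes against PBS were 0.25 to 0.35 at LPS 24 h and 0.27 to 0.45 with the antibody, none of them called. Ranges of about 2 SE reached 0.83 for H2-K1 at LPS 24 h, and ran from 0.0068 to 0.89 for H2-D1 with the antibody. Rises of these 2 genes as large as those called for Psmb8 were thus neither shown nor excluded. Of the distinct 50-base stretches in the H2-K1 transcript, 8.79% also occur in transcripts of other genes, and for H2-D1 the share was 14.3%. Reads there may thus have been split or lost in counting. How such reads were treated is not given in the sources used here.

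Of 11 other heavy chain genes tested, none rose and 2 fell at LPS 24 h, where 18.5% of all genes fell. The 2 are distant relatives that present non-peptide ligands: Mr1, which shows vitamin B metabolites (log2 change -1.51, SE 0.27, edgeR adjusted p = 0.00110), and Cd1d1, which shows lipids (-0.89, SE 0.25, edgeR adjusted p = 0.0108). Both rose again from LPS 24 h to LPS 72 h (log2 change 1.31 and 1.30, edgeR adjusted p = 0.00405 and 0.00248). Cd1d1 was at 22.4, 19.4 and 17.9 CPM at LPS 24 h and at 51.9, 47.3 and 48.2 CPM at LPS 72 h, against 34.8 to 40.1 CPM with PBS. With the antibody at 72 h it was at 10.8, 21.8 and 27.2 CPM, below all LPS 72 h libraries (log2 change -1.30, edgeR adjusted p = 0.00665).

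Tap2 moved differently from the rest. Tap1 and Tap2 encode the chains of the TAP transporter. Tap2 was at 340, 219, 226, 292 and 235 CPM with PBS. It was at 220, 172 and 169 CPM at LPS 24 h and at 393, 286 and 266 CPM at LPS 72 h, so that every 72 h library was above every 24 h library, as was the case for 22.4% of all genes. The rise from 24 to 72 h was 0.75 on the log2 scale (SE 0.23, 1.69-fold, edgeR adjusted p = 0.0214), the 1 call among the 10 genes in this comparison, in which 31.1% of all genes were called (14.7% higher). The call was lost without LPS 24 h library 2 or 3 or LPS 72 h library 1 (log2 change 0.70, 0.68 and 0.56, edgeR adjusted p = 0.0611, 0.0741 and 0.106). Against PBS, Tap2 had a log2 change of -0.49 (SE 0.21) at LPS 24 h, which was not called (edgeR adjusted p = 0.0753). It was called under 5 of 8 other settings, among them the model with a term for the replicate number (a replicate block), where the change was -0.46 (edgeR adjusted p = 0.0153).

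Tap1 did not follow its partner. It was at 219 to 282 CPM with PBS, at 316, 270 and 270.5 CPM at LPS 24 h and at 340, 266 and 274 CPM at LPS 72 h. Its log2 change from 24 to 72 h was 0.04, against 0.75 for Tap2, and the difference between the 2 genes was not tested. Psmb10 went the other way from Tap2 between these times: it was at 140, 145 and 102 CPM at LPS 72 h, below all LPS 24 h libraries, as 23% of all genes were (log2 change -0.87, SE 0.35, edgeR adjusted p = 0.0713, not called, though called under 3 of 8 other settings with a lowest adjusted p of 0.0223). The standard subunits Psmb5, Psmb6 and Psmb7 fell between 24 and 72 h (log2 change -0.99, -0.68 and -0.88, edgeR adjusted p = 0.00788, 0.0360 and 0.00516), though Psmb6 was not called without LPS 24 h library 1 or LPS 72 h library 1 or 3 (edgeR adjusted p from 0.0603 to 0.264). Without LPS 24 h library 1 the changes of Psmb5 and Psmb7 were -0.56 and -0.52 (edgeR adjusted p = 0.0482 and 0.0253).

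At LPS 72 h none of the 10 genes was called against PBS, where 0.0201% of all genes tested passed. With unadjusted p-values below 0.05 the count was also 0 of 10, against 11.4% of all genes, and with voom quality weights 2 of the 10 were called, Psmb8 and Psmb9. Psmb9 was at 210, 179 and 164 CPM, above all 5 PBS libraries (115 to 160 CPM), as 4.96% of all genes were, with a log2 change of 0.37 (edgeR adjusted p = 0.477, and 0.0426 with voom quality weights). Psmb8 was at 420, 388 and 328 CPM, which overlaps with PBS, with a log2 change of 0.31 (edgeR adjusted p = 0.510, and 0.0404 with voom quality weights). The log2 changes of the other 8 genes lay between -0.10 and 0.26.

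**Figure D3:**
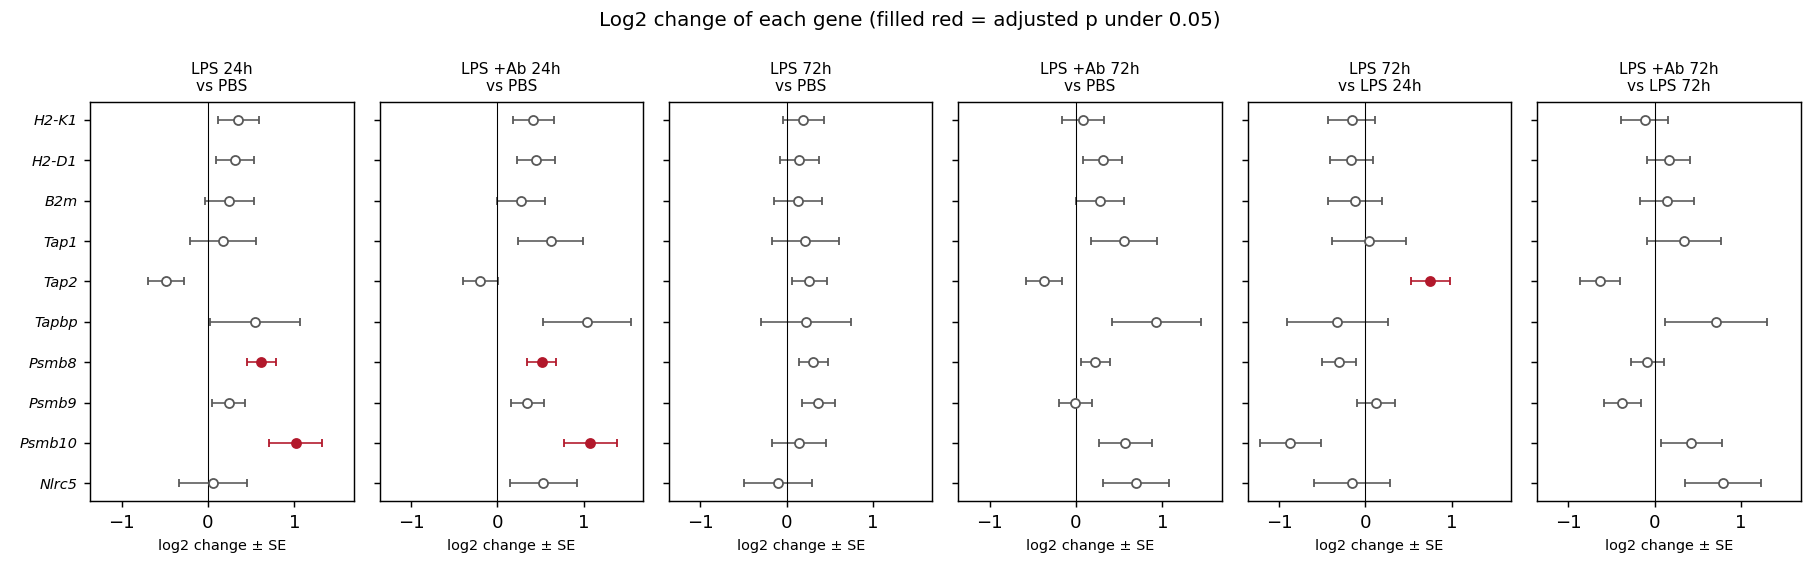
Log2 change ± SE of the 10 genes in 6 comparisons from 1 edgeR fit of all 17 libraries; filled red points have an adjusted p below 0.05. Only Psmb8 and Psmb10 at 24 h against PBS and Tap2 between LPS 72 h and LPS 24 h are filled.

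In the groups given anti-IL-10R, libraries of 1 group differed widely from each other. In both, library 1 was the highest for all 10 genes, and library 3 was the lowest for 9 of 10 at 24 h and 8 of 10 at 72 h. With LPS alone, library 1 was also the highest for 9 of 10 at 24 h and 8 of 10 at 72 h. The lowest was then library 2 for 7 of 10 at 24 h and library 3 for 8 of 10 at 72 h. The share of all genes with such an order was not computed. Tapbp, which encodes tapasin, had the widest spread: it was at 785, 283 and 148 CPM at 24 h and at 828, 165 and 136 CPM at 72 h, against 168 to 226 CPM with PBS. The ratio of the highest to the lowest library was 5.32 and 6.08, where the median gene had 1.46 and 1.43. With LPS alone Tapbp was at 361, 203 and 301 CPM at 24 h and at 264, 221 and 206 CPM at 72 h.

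Tap1 was at 660, 292 and 208 CPM with the antibody at 24 h, and at 713, 212 and 186 CPM at 72 h. Nlrc5, the transactivator of the class I genes, was at 226, 120 and 70.4 CPM at 24 h and at 294, 90.3 and 79.6 CPM at 72 h, against 80.1 to 121 CPM with PBS. For both genes library 1 was above all PBS libraries while library 3 was below them. Psmb8 was the steadiest of the 10 across the antibody libraries at 24 h and 72 h, with a ratio of highest to lowest of 1.27 and 1.38. In all, antibody library 1 was above every PBS library for 9 of the 10 genes at both times, where 33.5% and 33.6% of all genes were. Antibody library 3 was below every PBS library for 5 of 10 at 24 h and 6 of 10 at 72 h, where 36.4% and 36.3% of all genes were.

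The summed erythroid and neutrophil markers varied with this order of libraries. Mpo, Prtn3 and Elane had the most counts of the neutrophil list (1442238, 308495 and 207749 over all 17 libraries). Car1 had the most of the erythroid list (54011). The sums thus rest largely on few genes and do not show whether cells other than HSPC were present. The 11 erythroid markers summed to 1738, 392 and 21.2 CPM in antibody libraries 1, 2 and 3 at 24 h and to 1036, 157 and 7.92 CPM at 72 h. In library 3 at both times, Slc4a1, Hba-a1 and Hba-a2 were among the markers at 0. The 11 neutrophil markers had the opposite order, at 4086, 9741 and 10887 CPM at 24 h and 3271, 9063 and 11082 CPM at 72 h. The HSPC markers summed to 1734, 1388 and 1542 CPM at 24 h and to 2043, 1768 and 1347 CPM at 72 h. The part of these marker levels in the spread of the 10 genes was not tested.

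**Figure D4:**
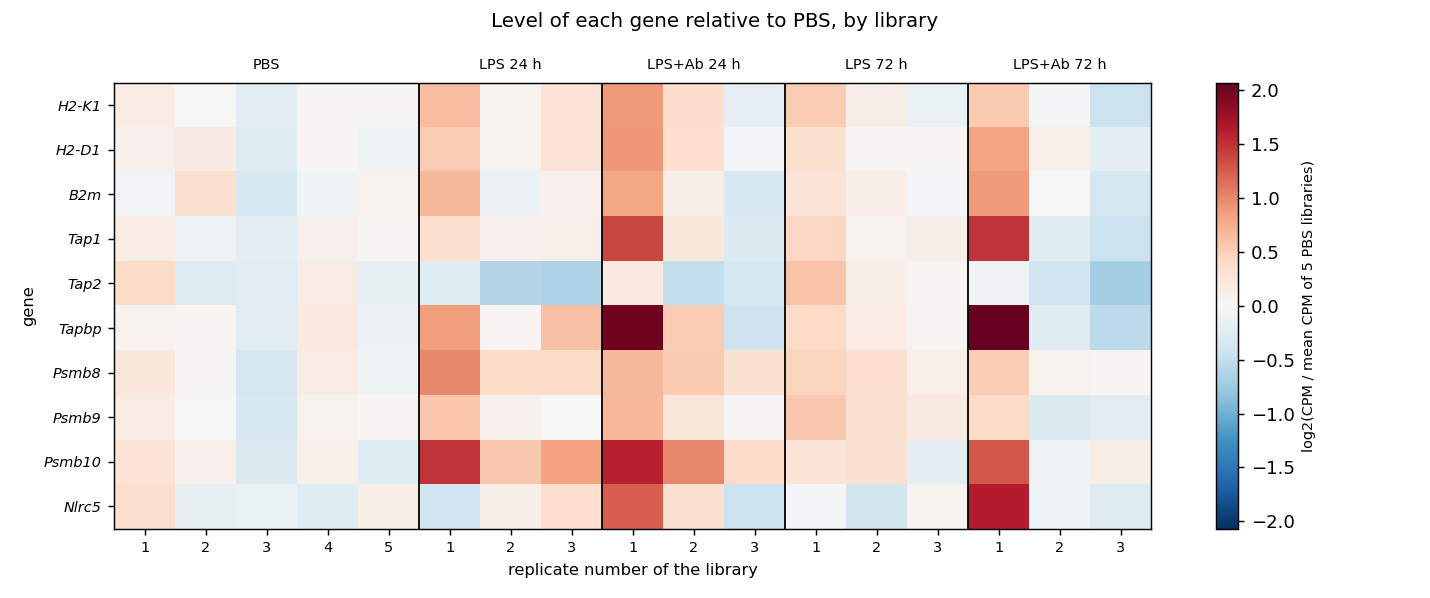
Level of the 10 genes in each of the 17 libraries as log2 of the CPM over the PBS mean; columns are libraries by group and replicate number, red is above and blue below the PBS mean. The antibody libraries numbered 1 are the reddest columns for Tap1, Tapbp and Nlrc5, and the Tap2 row is blue at LPS 24 h and in most antibody libraries.

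The mean changes of Tapbp, Tap1 and Nlrc5 in the antibody groups rest on library 1. The log2 change of Tapbp against PBS was 1.04 (SE 0.52, edgeR adjusted p = 0.148) with the antibody at 24 h and 0.12 without library 1. At 72 h it was 0.93 (edgeR adjusted p = 0.224) and -0.37 without library 1. The log2 change of Nlrc5 at 72 h was 0.69 (edgeR adjusted p = 0.228) and -0.15 without library 1, and that of Tap1 at 24 h was 0.62 and -0.01 without library 1. None of the 10 genes was called with the antibody at 72 h against PBS, where 13.2% of all genes were called. With an unadjusted p below 0.05 the count was 0 as well, against 31.7% of all genes, and it was 0 with DESeq2 and with voom.

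A gene of interferon signalling was high in the same libraries. Irf1, an interferon-induced factor that binds class I promoters, was at 237, 67.7 and 80.3 CPM with the antibody at 24 h and at 363, 67.8 and 79.1 CPM at 72 h, against 96.1 to 118.5 CPM with PBS. Both antibody libraries numbered 1 were thus high for Irf1 too. With LPS alone Irf1 was at 67.6 to 76.4 CPM at 24 h, below the PBS libraries, and at 99.0 to 131 CPM at 72 h. Irf1 was not called in any comparison. Of 18 interferon signalling genes tested, 1 rose and 5 fell at LPS 24 h against PBS, a count near the share of all genes called (37.6%), and 0 rose and 2 fell without LPS 24 h library 1, or 0 and 3 with the replicate block. Irf2, a repressor of interferon responses, fell by 1.03 on the log2 scale (edgeR adjusted p = 0.00144). Ifng, the gene of interferon gamma, and Ifnb1 did not pass the filter, with 46 and 2 counts over all 17 libraries. With the antibody at 72 h their highest levels were 1.77 and 0.168 CPM, each with a median of 0. In the other groups the highest were 0.458 CPM for Ifng (LPS 72 h) and 0 for Ifnb1. The part of these levels in the results was not tested.

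The antibody itself was compared with LPS alone at each time. At 24 h no gene of the 14920 was called (0%), and none of the 10 had an unadjusted p below 0.05, as 1.83% of all genes did. DESeq2 and voom called none of the 10 either. Tapbp had the largest mean change of the 10, 0.49, which was -0.42 without antibody library 1. At 72 h 15.1% of all genes were called, but none of the 10 (1 of 10 at an unadjusted p below 0.05, against 32.5% of all genes, 1 with DESeq2 and 2 with voom quality weights).

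At 72 h the gene below that unadjusted threshold was Tap2. It was at 250, 199 and 161 CPM with the antibody and at 393, 286 and 266 CPM with LPS alone, so the groups did not overlap, as was the case in this direction for 16.1% of all genes. The log2 change was -0.63 (SE 0.23, unadjusted p = 0.0142, edgeR adjusted p = 0.0730). It was called under 5 of 8 other settings, DESeq2 and voom quality weights among them (adjusted p from 0.0112 to 0.0388). Nlrc5 had a log2 change of 0.79 (edgeR adjusted p = 0.225), which was -0.03 without antibody library 1, and Tapbp one of 0.71 (edgeR adjusted p = 0.425), which was -0.57 without it.

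The difference between the antibody effects at 72 h and 24 h was called for 6.35% of all genes and for none of the 10. Tap2 had the largest such difference, -0.93 on the log2 scale (SE 0.32, unadjusted p = 0.0116, edgeR adjusted p = 0.0950). It was called under 3 of 9 other settings, DESeq2 and voom quality weights among them (adjusted p from 0.0435 to 0.0485), and voom also called Psmb9. At an unadjusted p below 0.05 the count was 1 of 10, against 24.2% of all genes. Between 24 and 72 h in the antibody groups no gene was called (0%), none of the 10 had an unadjusted p below 0.05, as 4.26% of all genes did, and DESeq2 and voom called none of the 10.

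Factors that bind class I promoters were also measured. Of 9 such genes, 3 rose and 1 fell at LPS 24 h against PBS, near the share of all genes called (37.6%). Without LPS 24 h library 1, 1 rose and 1 fell. The gene that fell was Rfx5, a subunit of the RFX complex, at 24.4, 37.6 and 37.2 CPM against 42.8 to 55.6 CPM with PBS (log2 change -0.60, SE 0.15, edgeR adjusted p = 0.00550). At LPS 72 h Rfx5 was at 56.7, 55.6 and 65.3 CPM, a rise of 0.84 from 24 h (edgeR adjusted p = 0.00144). With the antibody at 72 h it was at 38.4, 34.9 and 41.2 CPM, below all LPS 72 h libraries (log2 change -0.63, edgeR adjusted p = 0.0161), a call that was lost without antibody library 1 or 2 (edgeR adjusted p = 0.0564 and 0.0528). Of the 6 NF-kB genes, which encode the subunits of the factor and its inhibitor, none rose at LPS 24 h. Rel fell (log2 change -0.87, edgeR adjusted p = 0.00481), where 18.5% of all genes fell.

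Most pairs of the 10 genes varied together across the 17 libraries. As a description, over the 45 pairs Pearson's r of log2 CPM had a median of 0.76 and a range of -0.04 to 0.97, where the median over pairs of all tested genes was close to 0. Tap1 and Tapbp formed the closest pair (0.97), and Tap2 had the lowest mean r with the others (0.27). The libraries share groups and the 2 high antibody libraries, which enter every pair. The 6 other genes with the highest mean r with the 10 were H2-T22 (0.80), a nonclassical heavy chain gene, Ogfr (0.79), Ly6i (0.79), Psme1 (0.79), Batf2 (0.78) and Phc2 (0.78). H2-T22 was at 238, 145 and 77.8 CPM with the antibody at 24 h and at 247, 103 and 73.8 CPM at 72 h, against 81.6 to 101 CPM with PBS, so it too was high in the antibody libraries numbered 1.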

How the data were processed

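The values used are raw read counts per gene, 1 column per library, which the authors deposited for all 17 libraries. Per the submitters' processing notes, HISAT2 2.2.0, Subread, featureCounts 2.1.1, R 4.3.2 and DESeq2 were used with GRCm38; the annotation, the strand setting and the treatment of reads that map to several genes are not given in the sources used here. Totals of 10516722 to 16006001 counts per library set the precision. The design text and the protocol give the LPS and antibody amounts in different units, so no amount is stated.

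Genes were filtered with edgeR's filterByExpr by group (minimum count 10), which left 14920 genes with 99.9% of counts, scaled by TMM and fitted in edgeR 4.0.16 (R 4.3.3) with glmQLFit and glmQLFTest, 1 mean per group over all 17 libraries. SE is the log2 change over the square root of F. Adjusted p-values are Benjamini-Hochberg over all genes tested, two-sided, in each of 9 comparisons. The fit was tested on simulated data. The alternatives were other scaling factors, DESeq2 1.42.0, limma 3.58.1 voom with quality weights, no filter, only the groups compared, a replicate block and leaving out each library. Leaving out both antibody libraries numbered 1, or both 24 h libraries numbered 1, was added after seeing the data, as were the count ratios.

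Genes named are the 10, Psmb5, Psmb6, Psmb7, Psme1, Psme2, Irf1, per list and comparison at most the 2 called genes of largest change, and the 6 other genes with the highest mean correlation with the 10; Ifng and Ifnb1 are named because they did not pass the filter. 1 gene that the rule names is not reported here. The genes and lists were chosen with earlier results of these data known.

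Replicate numbers come from the sample labels, which do not say what a number shares. The names of the PBS libraries and of both 24 h libraries numbered 1 lack the square brackets that the other library names have. Whether this marks a batch is not stated. Correlations of same-numbered libraries' deviations from their group means were all above 0.1 in LPS 24 h against PBS only (0.158 to 0.191). The mean over different numbers there was -0.0887. In the other comparisons at least 1 same-numbered correlation was lower. Libraries of different numbers also reached higher values, such as 0.349 for LPS 72 h library 2 with LPS 24 h library 1. These correlations thus cannot decide whether the numbers pair samples. The reported fit uses no pairing, and the replicate block is an alternative. Between the antibody groups at 72 h and 24 h the same-numbered correlations were 0.72, -0.02 and 0.70 for numbers 1, 2 and 3. Antibody libraries numbered 1, and those numbered 3, were thus alike at both times, and the 2 times may not be separate observations of that spread. No 2 libraries of a group agreed within sampling noise.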

Additional observations from a re-analysis of the deposited data

Results flagged for a closer look

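The log2 change of Tap2 between LPS 72 h and LPS 24 h was 0.75 and passed the test, which is also the test that its LPS effect against PBS differs between these times. Every LPS 72 h library lay above every LPS 24 h library, and the edgeR adjusted p was 0.0214.

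Among 29 sets of 5 PBS libraries checked for a library far from the other 4, 3 had one, and chance gives about 1 in 20. The Psmb9 to Psmb6 count ratio was 1.26 in PBS library 5, above the other 4. The endothelial and stromal markers summed to 181 CPM in PBS library 5, with a median of 147 over the PBS libraries. The macrophage markers summed to 3431 CPM in PBS library 2, with a median of 820 CPM.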

How the results depend on the processing

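Of the 90 log2 changes of the 10 genes in the 9 comparisons, 48 changed sign under at least 1 alternative; none of these was called, in the reported fit or in the alternative. Of the 5 called changes none changed sign, and 9 others were called under at least 1 alternative. The number of the 10 genes called at LPS 24 h against PBS was 2, and it was 3 with upper-quartile factors, voom or the replicate block, 4 when only the groups compared were fitted, 0 to 2 when 1 library was left out, and 1 without both 24 h libraries numbered 1. With the antibody at 24 h against PBS it was 2, and 1 with upper-quartile factors, 0 to 2 when 1 library was left out, 1 without both antibody libraries numbered 1, and 1 without both 24 h libraries numbered 1. At LPS 72 h against PBS it was 0, and 2 with voom. Between LPS 72 h and LPS 24 h it was 1, and 2 with DESeq2, 2 with only the groups compared, 2 with the replicate block and 0 to 1 when 1 library was left out. For the antibody effect at 72 h it was 0, and 1 with upper-quartile factors, 1 with DESeq2, 2 with voom, 1 with the replicate block and 1 without both antibody libraries numbered 1. For the difference of antibody effects it was 0, and 1 with DESeq2, 2 with voom and 1 with the replicate block. Where calls were lost with a library left out, fewer samples entered the fit; other causes were not tested. Of the log2 changes whose values are given, those that turned sign outside single left-out libraries were B2m against PBS (LPS 24 h, -0.0038 without both 24 h libraries numbered 1; antibody at 24 h, -0.073 without both antibody and -0.060 without both 24 h libraries numbered 1), Tap1 with the antibody at 72 h (against LPS -0.52 without both antibody libraries numbered 1 and -0.28 with voom; against PBS -0.32 and -0.064), Nlrc5 with the antibody at 72 h (-0.031 against LPS and -0.15 against PBS without both antibody libraries numbered 1) and Tapbp: against LPS -0.41 at 24 h and -0.57 at 72 h without both antibody libraries numbered 1, -0.21 at 24 h without both 24 h libraries numbered 1, and -0.28 at 72 h with voom; against PBS at 72 h -0.015 with voom and -0.37 without both antibody libraries numbered 1. With 1 library left out, the lowest and highest values were -0.031 and 1.11 (Nlrc5, 72 h against LPS), -0.15 and 1.01 (Nlrc5, 72 h against PBS), -0.42 and 0.89 (Tapbp, 24 h against LPS), -0.57 and 1.11 (Tapbp, 72 h against LPS), -0.37 and 1.33 (Tapbp, 72 h against PBS), -0.012 and 0.92 (Tap1, antibody at 24 h against PBS), -0.52 and 0.66 (Tap1, 72 h against LPS), -0.32 and 0.87 (Tap1, 72 h against PBS), -0.078 and 0.14 (Tap1, LPS 72 h against LPS 24 h), -0.026 and 0.40 (B2m, LPS 24 h against PBS), -0.086 and 0.50 (B2m, antibody at 24 h against PBS), -0.0020 and 0.33 (H2-K1, LPS 72 h against PBS), -0.20 and 0.022 (Nlrc5, LPS 72 h against PBS), and -0.10 and 0.10 for the log2 difference of the Psmb10 to Psmb7 ratio between LPS 24 h and PBS. Of all genes tested, the number called, with the lowest and highest over the alternatives, was 5616 at LPS 24 h against PBS (3281 without LPS 24 h library 1, 6828 with voom), 3605 with the antibody at 24 h against PBS (921 without antibody library 2, 4230 with DESeq2), 3 at LPS 72 h against PBS (0 with the replicate block, 2170 with voom), 1975 with the antibody at 72 h against PBS (374 with the replicate block, 3053 with voom), 4646 between LPS 72 h and LPS 24 h (3234 without LPS 72 h library 1, 6955 with voom), 2256 for the antibody effect at 72 h (797 without LPS 72 h library 1, 4433 with voom) and 947 for the difference of antibody effects (176 without both 24 h libraries numbered 1, 1673 with DESeq2). It was 0 for the antibody effect at 24 h (1 with DESeq2) and 0 between the antibody groups (2 with DESeq2).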
